A study of Mus musculus with 6 samples.

Results

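A set of 35 pan-macrophage and myeloid immune genes was followed across 6 Affymetrix arrays of sorted embryonic fibroblasts. The genes were chosen by symbol, from earlier results of the same arrays, and all 35 of 35 were measured among 22180 genes. Each was read from the only probe set that listed it alone. All cells were taken at stage E14.5 from 129SV mouse embryos, from tissue of the dorsal body wall, and all embryos were heterozygous Ebf2(GFP) carriers, with a fluorescent reporter (GFP) at Ebf2, a transcription factor gene of the early B cell factor family. Cells that carried PDGFRα, a growth factor receptor of mesenchymal cells, were divided by their GFP into an Ebf2(GFP)- group (n = 3 arrays) and an Ebf2(GFP)+ group (n = 3 arrays). The comparison asked how the 2 sorted fractions differed in gene expression, in a study of Ebf2 as a mark of precursors of brown and beige fat. The labels give PDGFRα and GFP as the sort criteria and name no leukocyte marker among them. Whether each replicate had its own litter or pool of embryos is not stated, so p-values measure the spread between these arrays, which may be technical.

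Macrophages of the embryo arise from blood-forming cells of the yolk sac and fetal liver and settle in most tissues, the dermis and body wall among them. They depend on the receptor encoded by Csf1r and on the transcription factor PU.1, encoded by Spi1, and they clear dying cells through complement, scavenger and Fc receptors. Their Toll-like receptors sense microbial lipids and nucleic acids, and the adaptors encoded by Tyrobp and Fcer1g pass signals from many of their surface receptors to the kinase Syk. Most of the 35 genes are therefore known for expression in leukocytes and not in fibroblasts.

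The sort by GFP was visible in the level of Ebf2. Ebf2 lay at log2 8.16, 8.60 and 9.21 in negative replicates 1, 2 and 3 and at 12.04, 12.04 and 11.93 in positive replicates 1, 2 and 3. Pdgfra lay between 12.90 and 13.24 in all 6 arrays, which cannot show the sort by PDGFRα, as no array held PDGFRα-negative cells. All levels given here are log2 values after robust multi-array averaging (RMA), a change is the mean of the GFP-positive arrays minus that of the GFP-negative ones, and errors of group means are SD over 3 arrays. Over all 22180 genes the median change was 0.02, and 851 genes were lower and 588 higher (2.65% of all genes) at a limma adjusted p under 0.05, so 59.1% of the called genes were lower. After centring each array on its median over these genes, 749 were lower and 868 higher, and that share was 46.3%. Detection calls were not used here, and the 40th percentile of the 6-array gene means, log2 6.78, serves as a mark of dim genes. A fold against a group mean below that mark may understate the difference.

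All 35 genes were lower in the GFP-positive arrays, by 1.51-fold (Tlr2) to 9.94-fold (Adgre1), with a median change of −1.90. They were called lower in 35 of 35 cases where 3.84% of all genes were, and the 3 positive arrays lay below the 3 negative ones in 35 of 35 cases where 9.78% of all genes did so. Because these genes were picked with this contrast known, those counts describe the choice and carry no test of their own. A difference of at least 4-fold was found for 17 members (0.361% of all genes were that much lower) and of at least 2-fold for 31 (1.51% of all genes), and the 4 smaller ones were Tlr2, Aif1, Tlr9 and Coro1a. In the GFP-positive arrays the mean level fell below the dim mark for 15 members and stayed above it for 20, whereas in the GFP-negative arrays 1 member, Tlr8, lay below it. In sorted bulk samples, fewer cells of a type and less RNA per cell cannot be told apart.

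**Figure D1:**
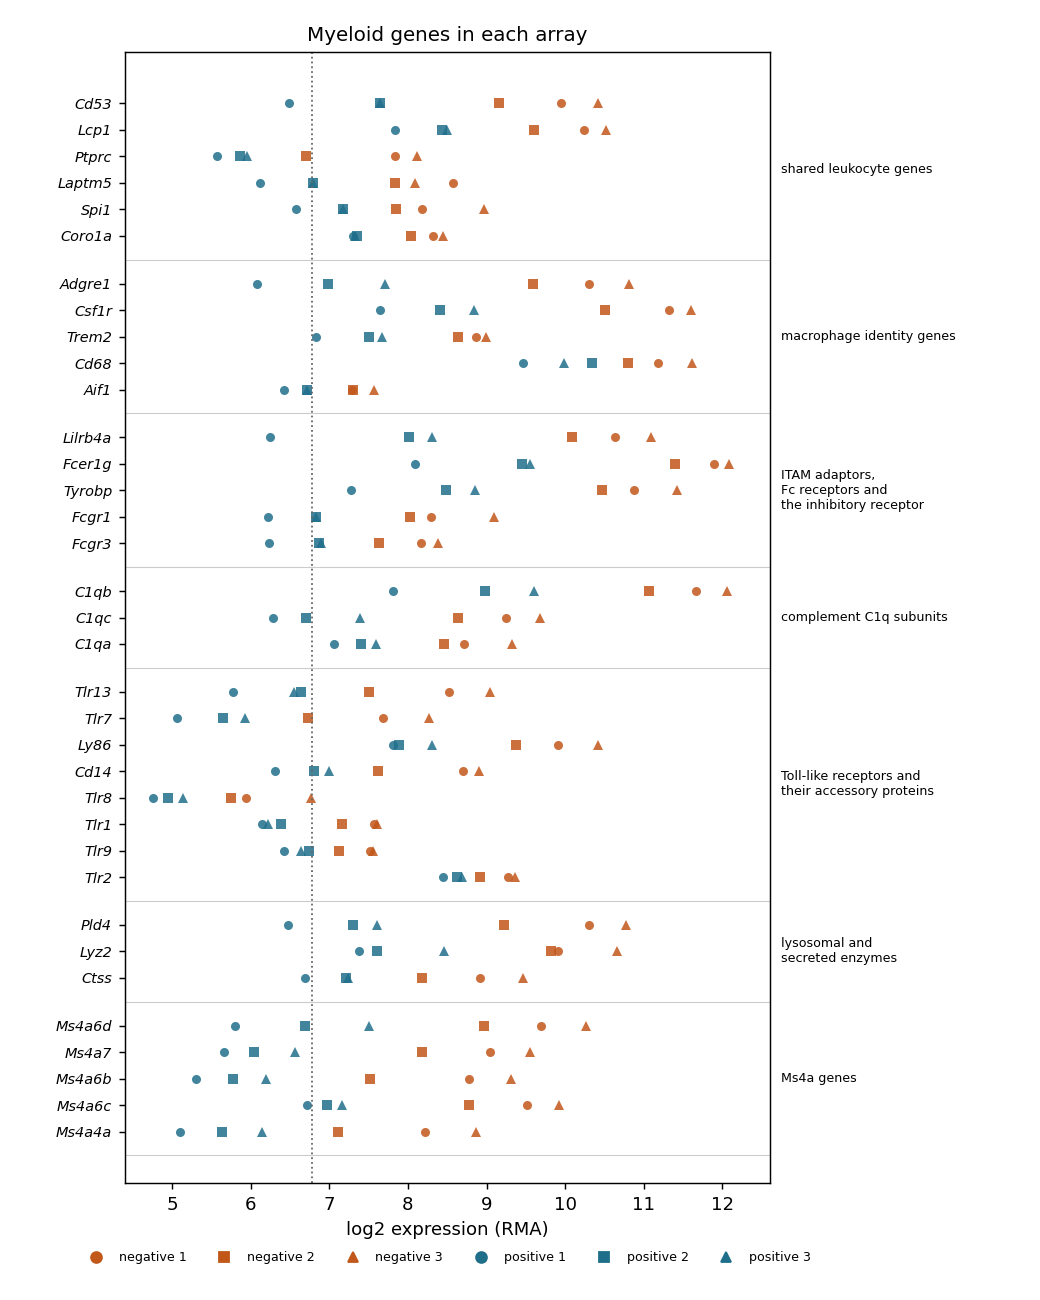
Log2 expression of the 35 myeloid genes (x axis) in each of the 6 arrays, grouped by role. Orange marks are GFP-negative and blue marks GFP-positive arrays, the marker shape gives the replicate number, and the dotted line is the dim mark at log2 6.78. In every row the blue marks lie to the left of the orange ones, and the blue circle of positive replicate 1 lies farthest left.

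Genes shared by most leukocytes differed by 1.92-fold to 5.98-fold. Cd53, a tetraspanin of white blood cells, lay at 9.95, 9.16 and 10.42 in negative replicates 1 to 3 and at 6.49, 7.65 and 7.65 in positive replicates 1 to 3, a change of −2.58 ± 0.41 (SE). The gap between the lowest negative and the highest positive array was 1.51. Lcp1, which encodes the actin-bundling protein L-plastin, lay at 10.24, 9.61 and 10.52 in the negative and 7.84, 8.43 and 8.50 in the positive arrays. Ptprc, the gene of the common leukocyte antigen CD45, was among the dimmer members, at 7.83, 6.70 and 8.12 against 5.58, 5.87 and 5.95. Its highest negative array was 2.67-fold above its lowest, so that the gap to the positive arrays was 0.75 although the group means differed 3.37-fold. Laptm5, a lysosomal membrane protein gene of blood cells, differed 3.02-fold. Spi1 lay at 8.18, 7.85 and 8.96 in the negative arrays and at 6.58, 7.18 and 7.18 in the positive ones (2.56-fold), and like Cd68 it was called in none of the 6 fits that left out 1 array. Coro1a, an actin regulator, showed the tightest positive group of all members, at 7.31, 7.35 and 7.33 (SD 0.023), against 8.32, 8.03 and 8.45.

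Among genes used to define macrophages, Adgre1, which encodes the F4/80 antigen, had the largest difference of the set. It lay at 10.30, 9.59 and 10.82 in the negative arrays and at 6.08, 6.98 and 7.70 in the positive arrays, with group means of 10.2 ± 0.617 and 6.92 ± 0.815 (SD, n = 3). Csf1r, the receptor of colony-stimulating factor 1, lay at 11.32, 10.51 and 11.60 against 7.65, 8.41 and 8.84 (7.18-fold), so even its lowest positive array was above the dim mark. Trem2, a lipid-sensing receptor of macrophages and microglia, differed 2.82-fold. Cd68, a lysosomal glycoprotein gene, stood at 11.18, 10.80 and 11.61 in the negative arrays and kept levels of 9.46, 10.34 and 9.98 in the positive ones. Its groups were parted by 0.45, and its 2.41-fold difference was called in the full set of arrays but in none of the 6 fits that left out 1 array. Aif1, the gene of the calcium-binding protein Iba1, lay within 0.28 in the negative arrays and differed 1.71-fold.

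The signalling adaptors with an immunoreceptor activation motif (ITAM) and their receptors followed. Fcer1g, the common gamma chain of Fc receptors, lay at 11.90, 11.39 and 12.09 in the negative arrays and at 8.10, 9.45 and 9.55 in the positive arrays. Tyrobp, which encodes the adaptor DAP12, lay at 10.88, 10.46 and 11.42 against 7.27, 8.49 and 8.85. The differences of these adaptors, 6.79-fold and 6.57-fold, were close in size, and in both the positive arrays 2 and 3 lay more than 1 log2 unit above positive replicate 1. The immunoglobulin Fc receptor genes Fcgr1 and Fcgr3 differed less, by 3.59-fold and 2.62-fold, and their positive means of 6.63 and 6.67 lay below the dim mark. Lilrb4a, an inhibitory receptor gene, had the widest positive group, at 6.24, 8.01 and 8.30, against 10.64, 10.09 and 11.09 in the negative arrays. Its change was −3.09 ± 0.55 (SE), or −2.45 without positive replicate 1. A second probe set listed both Lilrb4a and its neighbour Lilr4b, and it read 6.79, 5.38 and 7.47 in the negative and 4.72, 5.04 and 5.91 in the positive arrays. On that shared probe set the groups overlapped, since negative replicate 2 lay below positive replicate 3.

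The genes of the complement C1q subunits, whose products assemble into the recognition unit of the classical pathway, sit side by side on chromosome 4. C1qb lay at 11.66, 11.06 and 12.06 in the negative arrays and at 7.82, 8.98 and 9.61 in the positive arrays (6.93-fold). C1qc lay at 9.24, 8.64 and 9.68 against 6.28, 6.70 and 7.39 (5.26-fold), and C1qa at 8.71, 8.46 and 9.33 against 7.06, 7.41 and 7.60 (2.79-fold). All 3 subunit genes ordered the 6 arrays in the same way.

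Among the Toll-like receptors of the set, the endosomal sensors of nucleic acids (Tlr7, Tlr8, Tlr9 and Tlr13) were 1.73-fold to 4.11-fold lower. Tlr13, a sensor of bacterial ribosomal RNA, lay at 8.53, 7.51 and 9.04 against 5.77, 6.63 and 6.55 (4.11-fold). Tlr7, a sensor of single-stranded RNA, lay at 7.69, 6.73 and 8.27 against 5.07, 5.65 and 5.93 (4.04-fold). Its neighbour on the X chromosome, Tlr8, was dim throughout, at 5.94, 5.75 and 6.77 against 4.76, 4.95 and 5.15. In each of these 3 genes replicate 2 was the lowest negative array. Tlr9, a sensor of unmethylated DNA, differed 1.73-fold. Of the surface receptors for bacterial lipoproteins, Tlr1 differed 2.30-fold, with 7.57, 7.17 and 7.61 against 6.14, 6.39 and 6.22. Tlr2, its partner, had the smallest difference of the set, at 9.27, 8.92 and 9.36 against 8.44, 8.63 and 8.69, and its groups were parted by 0.23. Ly86, which encodes the accessory protein MD-1, differed 3.74-fold, and Cd14, a co-receptor gene for lipopolysaccharide, 3.26-fold.

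Of the enzymes, Pld4, an endolysosomal nuclease gene, had the largest difference, 7.87-fold, at 10.31, 9.22 and 10.78 against 6.47, 7.30 and 7.60. Lyz2, the lysozyme gene of myeloid cells, lay at 9.91, 9.82 and 10.66 against 7.38, 7.60 and 8.46 (4.99-fold). Ctss, which encodes the protease cathepsin S, lay at 8.92, 8.18 and 9.46 against 6.69, 7.22 and 7.24 (3.50-fold).

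The 5 Ms4a genes, which encode membrane proteins that span the membrane several times, differed by 5.43-fold to 7.89-fold and so held a narrower range of changes than any other role with more than 3 genes. Ms4a6d lay at 9.70, 8.97 and 10.27 against 5.80, 6.70 and 7.50, and Ms4a7 at 9.04, 8.18 and 9.55 against 5.66, 6.04 and 6.56. Ms4a6b had the widest negative group of all 35 genes, at 8.77, 7.52 and 9.32, a 3.48-fold spread between arrays of the same label. Ms4a6b, Ms4a6c and Ms4a6d are related copies, and how far their probe sets share signal was not tested. On chromosome 19 the 5 genes lie among other members of the family. Of the 11 other Ms4a genes listed for this comparison, 9 had a 6-array mean below the dim mark, where a fall may be understated. None of the 11 was called by limma (1 at an unadjusted p under 0.05, 0 with the replicate number as a block). Of these, Ms4a4d lies between Ms4a6b and Ms4a6d and was well above the dim mark, at 7.43, 8.04 and 8.44 in the negative arrays and 7.74, 7.85 and 8.27 in the positive ones (−0.02 ± 0.26 SE, adjusted p = 0.981). The B cell gene Ms4a1 and the mast cell gene Ms4a2, the latter chosen after its values were seen, had means below the dim mark and changes of −0.07 each (adjusted p = 0.557 and 0.753). Ms4a14, next to Ms4a7 and chosen after its values were seen, had a change of −1.21 ± 0.31 (SE) that limma did not call (adjusted p = 0.0776).

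**Figure D2:**
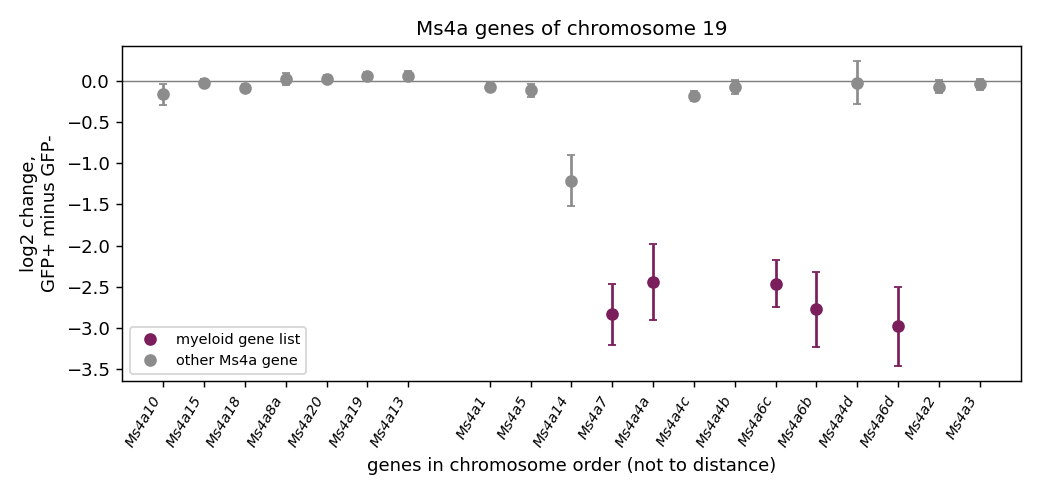
Log2 change (y axis, GFP-positive minus GFP-negative, bars are limma's standard errors) of the Ms4a genes of chromosome 19 in chromosome order, with equal spacing in place of distance and an empty place for a gene not analysed here. The 5 myeloid genes lie between −2.98 and −2.44, Ms4a14 at −1.21, and the other genes between −0.18 and 0.06.

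Promoter windows were compared because the members moved together and because PU.1 is known to bind near the start sites of many myeloid genes. RefSeq windows of build GRCm38.p6, from 250 bases before to 50 bases after a start site, were matched by symbol for 26 of the 35 genes. The letters GAGGAAGT, often given for PU.1, were searched on both strands and were found for 6 of these 26 genes (23.1%), against 997 of 27025 genes with a window (3.69%). The shorter core GAGGAA, which GAGGAAGT contains, was found for 17 of 26 genes (65.4%) and for 31.3% of all genes. Of the other overlapping forms, GGAAGT was found for 17 of 26 genes (26.5% of all), AGAGGAAG for 6 (5.22%) and GAGGAAGTG for 5 (1.84%). A composite form for ETS and IRF factors (GGAA, then any 2 bases, then GAAA) was found for 1 gene (3.16% of all), TTTCCNC for 12 (24.7%) and TATAAA, a common core promoter sequence, for 4 (15.7%). The motifs were chosen for these genes and no test was made. A match describes the letters in the window and no bound site. The windows of the 6 genes with GAGGAAGT are given 5′ to 3′ in the direction of the gene, with the match in capitals (as ACTTCCTC where it lies on the opposite strand), since they carry the match to compare with the changes above.
C1qc, chr4:136892865-136893164, minus strand: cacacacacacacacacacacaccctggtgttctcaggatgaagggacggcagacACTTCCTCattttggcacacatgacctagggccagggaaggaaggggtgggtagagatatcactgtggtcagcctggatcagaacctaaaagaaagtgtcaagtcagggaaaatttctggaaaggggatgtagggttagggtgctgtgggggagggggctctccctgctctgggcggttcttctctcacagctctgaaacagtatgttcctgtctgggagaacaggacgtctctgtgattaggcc
Pld4, chr12:112760405-112760704, plus strand: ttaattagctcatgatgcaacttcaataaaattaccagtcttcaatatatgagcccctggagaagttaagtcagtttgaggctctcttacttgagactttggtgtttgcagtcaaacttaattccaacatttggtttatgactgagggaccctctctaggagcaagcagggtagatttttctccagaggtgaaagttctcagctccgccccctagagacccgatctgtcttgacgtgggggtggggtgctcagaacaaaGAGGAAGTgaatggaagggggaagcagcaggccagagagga
Cd53, chr3:106790100-106790399, minus strand: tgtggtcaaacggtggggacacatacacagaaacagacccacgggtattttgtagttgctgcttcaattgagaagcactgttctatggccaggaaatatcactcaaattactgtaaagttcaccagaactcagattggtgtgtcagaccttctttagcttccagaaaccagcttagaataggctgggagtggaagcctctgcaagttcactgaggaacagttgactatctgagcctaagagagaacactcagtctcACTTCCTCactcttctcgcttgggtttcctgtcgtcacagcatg
Ctss, chr3:95526536-95526835, plus strand: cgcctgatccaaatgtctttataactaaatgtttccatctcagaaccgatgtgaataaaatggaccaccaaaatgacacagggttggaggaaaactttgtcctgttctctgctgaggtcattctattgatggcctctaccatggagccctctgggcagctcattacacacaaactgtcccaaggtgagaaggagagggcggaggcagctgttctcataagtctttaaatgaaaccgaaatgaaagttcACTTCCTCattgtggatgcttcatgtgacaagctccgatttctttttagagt
Tlr1, chr5:64933509-64933808, minus strand: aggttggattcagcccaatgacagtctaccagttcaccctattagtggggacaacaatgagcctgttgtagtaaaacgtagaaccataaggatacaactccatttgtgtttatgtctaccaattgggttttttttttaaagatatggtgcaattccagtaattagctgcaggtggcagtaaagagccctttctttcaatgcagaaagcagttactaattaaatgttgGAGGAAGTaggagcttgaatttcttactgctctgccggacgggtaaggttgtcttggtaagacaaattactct
Tlr9, chr9:106222348-106222647, plus strand: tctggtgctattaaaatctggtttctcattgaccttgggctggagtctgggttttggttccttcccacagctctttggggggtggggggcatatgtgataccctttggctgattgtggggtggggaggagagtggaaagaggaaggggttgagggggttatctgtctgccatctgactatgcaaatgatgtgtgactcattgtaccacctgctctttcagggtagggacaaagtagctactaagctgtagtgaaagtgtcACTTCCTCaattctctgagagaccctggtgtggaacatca

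In Cd53, Tlr9 and Pld4 the first base of the match lay 7, 11 and 10 bases into the transcribed side, counting the start site as base 1, and in Ctss and Tlr1 it lay 2 and 23 bases before the start. In C1qc it lay 195 bases before it. The changes of these 6 genes ran from −0.79 (Tlr9) to −2.98 (Pld4), nearly the span of the whole set.

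The arrays of one label were not alike in these genes, and the members agreed on which arrays were high. Negative replicate 2 was the lowest negative array for 34 of 35 genes, where it was so for 31.1% of all genes. Negative replicate 3 was the highest for 34 of 35, against 30.8% of all genes. Positive replicate 1 was the lowest positive array for 35 of 35, against 34.7% of all genes. The exceptions were Aif1, whose lowest negative array was replicate 1, and Laptm5, whose highest was replicate 1. All of these conditions together held for 33 of 35 members (94.3%), for 4.93% of all genes and for 146 of the 816 other genes called lower (17.9%). The genes were chosen with earlier results of these arrays known, so the shared order may not be independent of the choice. It is described here with no test.

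The median distance between the highest and the lowest negative array was 1.04 over the members, a 2.05-fold spread, against 0.18 over all genes. Negative replicates 2 and 3 were nearly always the lowest and the highest, so leaving out either must shorten this distance. It came to 0.47 without replicate 2, to 0.60 without replicate 3 and to 1.04 without replicate 1. Between the positive arrays the median distance was 0.84 over the members and 0.15 over all genes. The spread was wider where the difference between groups was larger. The 17 members with at least 4-fold differences had median spreads of 2.34-fold in the negative and 2.19-fold in the positive arrays, and the other 18 had 1.79-fold and 1.46-fold. The largest positive spreads, 4.18-fold from replicate 1 to 3, 3.46-fold and 3.24-fold, were those of Lilrb4a, C1qb and Ms4a6d. The smallest was that of Coro1a.

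**Figure D3:**
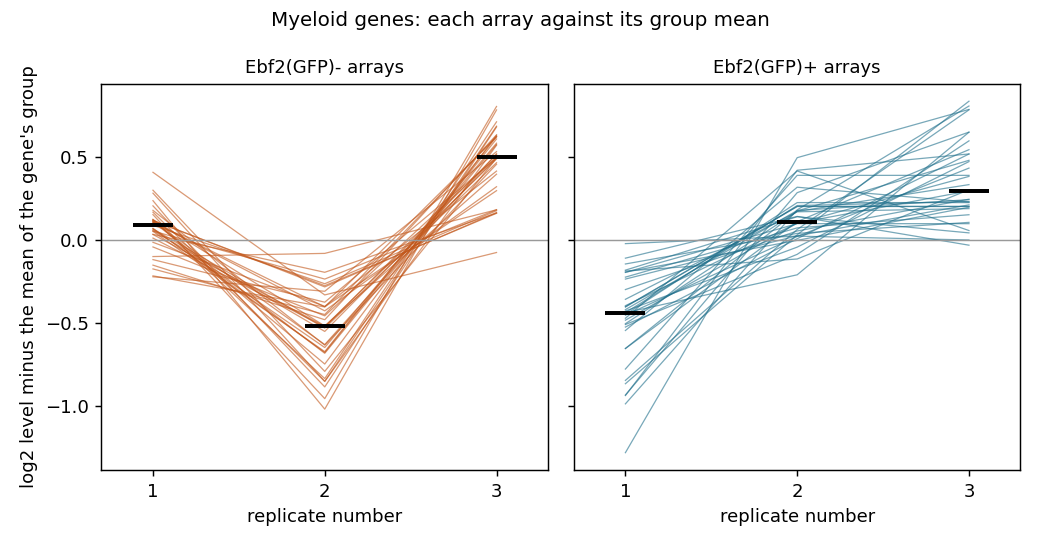
Log2 level of each myeloid gene in each array minus the mean of that gene over the 3 arrays of the same label (y axis), with a line for each of the 35 genes and a black bar for the median. Negative replicate 2 lies below its group mean for 35 of 35 genes (median −0.52), and positive replicate 1 below its own for 35 of 35 (median −0.44).

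The titles use replicate numbers 1 to 3 for each group. Paired by number, the median difference over the members was −2.45 for replicate 1, −1.17 for replicate 2 and −2.23 for replicate 3, and replicate 2 gave the smallest difference for 34 of 35 genes. In that pair a low negative array met a positive array that was not the lowest. With the replicate number as a block, limma again called 35 of 35 members lower, where 5.49% of all genes were lower and 4.55% higher. With 1 array left out the count of members called lower was 14, 31 or 21 without negative replicate 1, 2 or 3, where 2.61%, 2.96% and 2.82% of all genes were called lower. It was 18, 11 or 22 without positive replicate 1, 2 or 3, where 1.75%, 1.83% and 2.06% of all genes were. The median change stayed between −2.18 and −1.66 in those fits. A group of 11 members was called in every one of the 6 fits, as 1.51% of all genes were called lower in these and in the full set: Laptm5, Coro1a, Lcp1, Csf1r, Adgre1, Aif1, Trem2, Fcer1g, Tlr1, Ms4a6c and Ms4a7.

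Other genes of the same pathways were listed by their known role and tested by limma with adjustment over all 22180 genes. These lists and the marker lists below were also chosen with earlier results of these data known. Their p-values are therefore no independent support. Of 25 other genes of the Toll-like receptor pathway, 3 were lower and none higher, with a median change of −0.03. With the block 3 were lower and 2 higher, Tlr3 and Irak3, which were chosen after their values were seen. Tlr3, the endosomal sensor of double-stranded RNA, lay at 7.49, 7.76 and 8.06 in the negative arrays and at 8.07, 8.43 and 8.35 in the positive ones, opposite in direction to the sensors among the members (0.51 ± 0.16 SE, limma adjusted p = 0.136, or 0.0255 with the block). Irak3, an inhibitor gene of the pathway, had a change of 0.71 (adjusted p = 0.17, or 0.0403 with the block). Cd180, which encodes the receptor partner of the Ly86 product, lay at 8.80, 7.90 and 9.31 in the negative arrays and at 5.56, 6.08 and 6.05 in the positive arrays. It fell 6.84-fold (−2.77 ± 0.35 SE, adjusted p = 0.00654). Unc93b1, which carries the nucleic acid sensors to endosomes, fell 3.31-fold (adjusted p = 0.0113), and its call ended without positive replicate 1 or 2 (adjusted p up to 0.0607). Irf8, a transcription factor gene of myeloid cells, fell 1.93-fold (adjusted p = 0.0415), a call that held only without negative replicate 2 among the arrays left out in turn (adjusted p up to 0.159). The widely expressed genes Hsp90b1, Tab2 and Rela had changes of 0.00, −0.06 and 0.01 (adjusted p = 0.974, 0.752 and 0.977). Irak2 was not called (−0.40 ± 0.10 SE, adjusted p = 0.0776), though it was after quantile normalization (0.0464) and with array weights (0.0466).

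Of 18 ITAM signalling genes, 8 were lower and none higher, with a median of −0.67. Inpp5d, a lipid phosphatase gene of blood cells, fell 4.01-fold (adjusted p = 0.00768), and Plcg2, a phospholipase gene, 2.02-fold (−1.01 ± 0.13 SE, adjusted p = 0.00696). Syk itself lay at 7.19, 7.05 and 7.51 against 6.47, 6.49 and 6.62 (1.65-fold, adjusted p = 0.0191). Lcp2, an adaptor gene, and Ptpn6, a phosphatase gene, fell 3.03-fold and 2.38-fold (adjusted p = 0.0279 and 0.0394). The list also held Gpr65, a proton-sensing receptor gene, which fell 2.84-fold (adjusted p = 0.0105, or 0.0584 without positive replicate 1). The call of Syk ended without negative replicate 1 or any 1 positive replicate (up to 0.0888). Those of Lcp2 and Ptpn6 ended without any 1 array other than negative replicate 2 (up to 0.117 and 0.15). The broadly expressed kinase gene Prkcd was not called (−0.17 ± 0.10 SE, adjusted p = 0.436).

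Of 18 other complement genes, 5 were lower and none higher, with a median of −0.21 (with the block, 7 lower and 2 higher). The receptors C3ar1 and C5ar1 fell 5.30-fold (adjusted p = 0.019) and 1.99-fold (adjusted p = 0.0118). The complement receptor 3 subunit genes Itgam and Itgb2 fell 2.07-fold and 1.71-fold (adjusted p = 0.0201 and 0.0354). C3ar1 was called in the fits without negative replicate 2 or positive replicate 1 or 3 and lost otherwise (up to 0.0699), C5ar1 was lost without negative replicate 1 (0.05), Itgam without negative replicate 1 or any 1 positive replicate (up to 0.0853) and Itgb2 without any 1 array (up to 0.101). Masp1, a protease gene of the lectin pathway, fell 2.84-fold (−1.50 ± 0.14 SE, adjusted p = 0.00205) with an order of arrays unlike that of the members, at 8.93, 8.50 and 8.72 against 7.31, 6.98 and 7.34. The soluble inhibitor gene Serping1, which lay at or above 11.84 in every array, had a change of 0.27 ± 0.10 (SE, adjusted p = 0.201).

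Of 18 other lysosomal enzyme and membrane genes, 5 were lower and none higher, with a median of −0.22. Ctsh, a cathepsin gene, fell 2.78-fold (−1.47 ± 0.15 SE, adjusted p = 0.00339). Ctsc fell 2.91-fold (adjusted p = 0.0242), Lgmn 1.93-fold (0.0287), Ctsb 1.32-fold (0.0283) and Lipa 1.24-fold (0.0469). Without negative replicate 1 or any 1 positive replicate the last 4 calls ended, as those of Ctsc, Ctsb and Lipa also did without negative replicate 3 and that of Lipa without negative replicate 2 (adjusted p up to 0.106, 0.121, 0.114 and 0.146 in the order given). Lipa was also lost after centring the arrays on their median over all probe sets (0.0515) or over the genes tested (0.0993). The general lysosomal genes Psap and Lamp1 had changes of −0.09 and −0.15 (adjusted p = 0.552 and 0.334).

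Of 14 transcription and growth factor genes of the myeloid line, 4 were lower and none higher (7 lower with the block), with a median of −0.34. Besides Irf8 these were Runx1 (2.24-fold, adjusted p = 0.0229), Csf3r (1.61-fold, 0.0393) and Id2 (1.26-fold, 0.0493). Without 1 array the call of Runx1 ended for negative replicates 1 and 3 and positive replicates 1 and 3 (up to 0.104), and those of Csf3r and Id2 ended for any 1 array (up to 0.112 and 0.141). The call of Id2 was also lost after centring on the median over all probe sets (0.076) or over the genes tested (0.0861), with array weights (0.0579), with each probe set by itself (0.0523) and with robust eBayes (0.0516). Maf and Klf4, which mesenchymal cells also express, were not called without the block (adjusted p = 0.305 and 0.613). With the replicate number as a block Maf was called lower (−0.45 ± 0.06 SE, adjusted p = 0.0159), with paired differences of −0.40, −0.36 and −0.58.

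Markers of tissue-resident macrophages were lower in the same arrays, with 8 of 11 measured genes lower, none higher and a median of −2.74. Folr2, a folate receptor gene, lay at 10.50, 9.70 and 10.95 against 7.18, 7.77 and 7.97 and fell 6.69-fold (adjusted p = 0.00626), and Pf4, a chemokine gene, fell 7.40-fold (adjusted p = 0.0106). The blood clotting factor gene F13a1 fell 11.5-fold (adjusted p = 0.00822) and the mannose receptor gene Mrc1 10.1-fold (adjusted p = 0.0114, or 0.0511 without negative replicate 1). Lyve1, a hyaluronan receptor gene, fell 8.09-fold (adjusted p = 0.0107, or 0.0517 without positive replicate 2). Mertk, a receptor gene for dying cells, lay at 9.82 to 10.31 in all arrays and was not called (−0.29 ± 0.09 SE, adjusted p = 0.149). Of the 11 genes, 7 had the order of arrays described for the members. Cbr2, a carbonyl reductase gene, did not, at 8.49, 8.56 and 8.47 against 6.96, 7.10 and 7.12 (2.72-fold, adjusted p = 0.000276). Of 8 measured microglia markers, 5 were lower, P2ry12 by 4.54-fold (adjusted p = 0.00922, or 0.0516 without positive replicate 1). P2ry13 and Fcrls fell 3.79-fold and 5.19-fold (adjusted p = 0.0121 and 0.0372). The P2ry13 call ended without negative replicate 1 or any 1 positive replicate (up to 0.0665) and the Fcrls call without any 1 array but negative replicate 2 (up to 0.145). Sall1 fell 1.42-fold (adjusted p = 0.00689), and Siglech fell 1.40-fold (adjusted p = 0.0183) with a call that ended without negative replicate 3 or any 1 positive replicate (up to 0.0779). The 6-array means of Sall1 and Siglech, 6.70 and 6.50, lay below the dim mark, and neither gene had the order of arrays of the members. Tmem119 and Olfml3, at 9.38 to 9.83 in all arrays, were not called (0.04 each, adjusted p = 0.879 and 0.743).

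Markers of other blood cells gave few calls. Among 11 measured neutrophil markers limma called none (1 at an unadjusted p under 0.05, 1 higher with the block), and 10 of 11 lay below the dim mark. Among 11 T and natural killer cell markers it called none (0 at an unadjusted p under 0.05, 0 with the block), with 10 of 11 below the mark. In the monocyte list 1 of 8 was lower, the integrin gene Itgal (1.43-fold, adjusted p = 0.0441, up to 0.164 without any 1 array other than negative replicate 2). Ccr2, a defining monocyte receptor gene, lay between 5.08 and 5.53 in all arrays (−0.28 ± 0.08 SE, adjusted p = 0.134). Plac8 and Ly6c1 went the other way, with changes of 0.417 and 0.375 that limma did not call (adjusted p = 0.272 and 0.235). The median change of the monocyte list was 0.05. In this list 4 genes had an unadjusted p under 0.05, and 2 of those were lower. Of 8 dendritic cell and antigen presentation genes, none was lower and 1 was higher, Zbtb46 (1.37-fold, adjusted p = 0.00755). With the block the class II gene H2-Aa was called lower (−0.34, adjusted p = 0.0433, against 0.102 without it). Of 8 B cell markers 1 was lower, Cd79b, at 8.07, 7.84 and 8.03 against 6.23, 6.11 and 6.22 (3.47-fold, adjusted p = 0.000276), while Cd79a was at 6.82 to 7.16 in all arrays (−0.06 ± 0.09 SE, adjusted p = 0.817).

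Of the 9 mast cell markers, 4 lay below the dim mark, the receptor gene Fcer1a among them (4.50 to 4.78). Cpa3, which encodes a mast cell protease, lay at 10.46, 12.01 and 11.27 in negative replicates 1 to 3 and at 10.38, 11.81 and 10.77 in positive replicates 1 to 3. It was highest in replicate 2 of both groups, as were Tpsb2 and Cma1, whereas the members were lowest in negative replicate 2. Over all genes, negative replicate 2 was the highest negative array for 35.7%. Among the positive arrays Cpa3, Tpsb2 and Cma1 were lowest in replicate 1, as the members were. The Cpa3 groups overlapped (−0.26 ± 0.48 SE, adjusted p = 0.851). The receptor gene Kit lay between 8.77 and 8.98 in all arrays. None of the 9 mast cell markers was called by limma (0 at an unadjusted p under 0.05), and Cma1 was called lower with the block (adjusted p = 0.0145). Megakaryocyte markers gave no call among 6 genes (0 at an unadjusted p under 0.05, 0 with the block), and neither did 6 erythroid genes (0 and 0). The embryonic globin gene Hbb-y went from 6.45 in negative replicate 1 to 9.27 in negative replicate 3 and lay at 6.14, 6.73 and 6.79 in the positive arrays (−1.35 ± 0.65 SE, adjusted p = 0.362). Its lowest negative array was thus not that of the members, while its highest negative array and its lowest positive array were.

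Endothelial markers, 10 of 10 of them above the dim mark, held 2 lower genes and 1 higher. Erg fell 2.44-fold (adjusted p = 0.00169), Cdh5 fell 2.00-fold (adjusted p = 0.016, up to 0.066 without negative replicate 2 or positive replicate 2) and Emcn rose 1.92-fold (adjusted p = 0.0214, up to 0.0943 without negative replicate 3 or any 1 positive replicate). The mean endothelial level was 8.84, 9.42 and 9.04 in negative replicates 1 to 3, highest in the negative array where the myeloid members were lowest. In positive replicates 1 to 3 it was 8.69, 8.98 and 8.86, lowest in replicate 1, as the members were. A peak in negative replicate 2 was not particular to endothelial and mast cell markers. Mean levels in negative replicates 1 to 3 were 6.65, 7.01 and 6.79 for megakaryocyte markers. For the mostly dim neutrophil markers they were 5.61, 5.79 and 5.71. Mesenchymal markers stayed high, with mean levels of 12.73, 12.76 and 12.76 in the negative and 12.27, 12.31 and 12.42 in the positive arrays, and 3 of 11 were lower. These were Thy1 (3.86-fold, adjusted p = 0.000276), Twist2 (3.18-fold, adjusted p = 0.0024) and Lum (1.27-fold, adjusted p = 0.0295, lost without any 1 array but negative replicate 1, up to 0.103). The mean level of the 35 members was 9.17, 8.56 and 9.57 in the negative arrays and 6.61, 7.23 and 7.45 in the positive arrays. The part of any of these cell types in the differences between arrays was not tested.

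**Figure D4:**
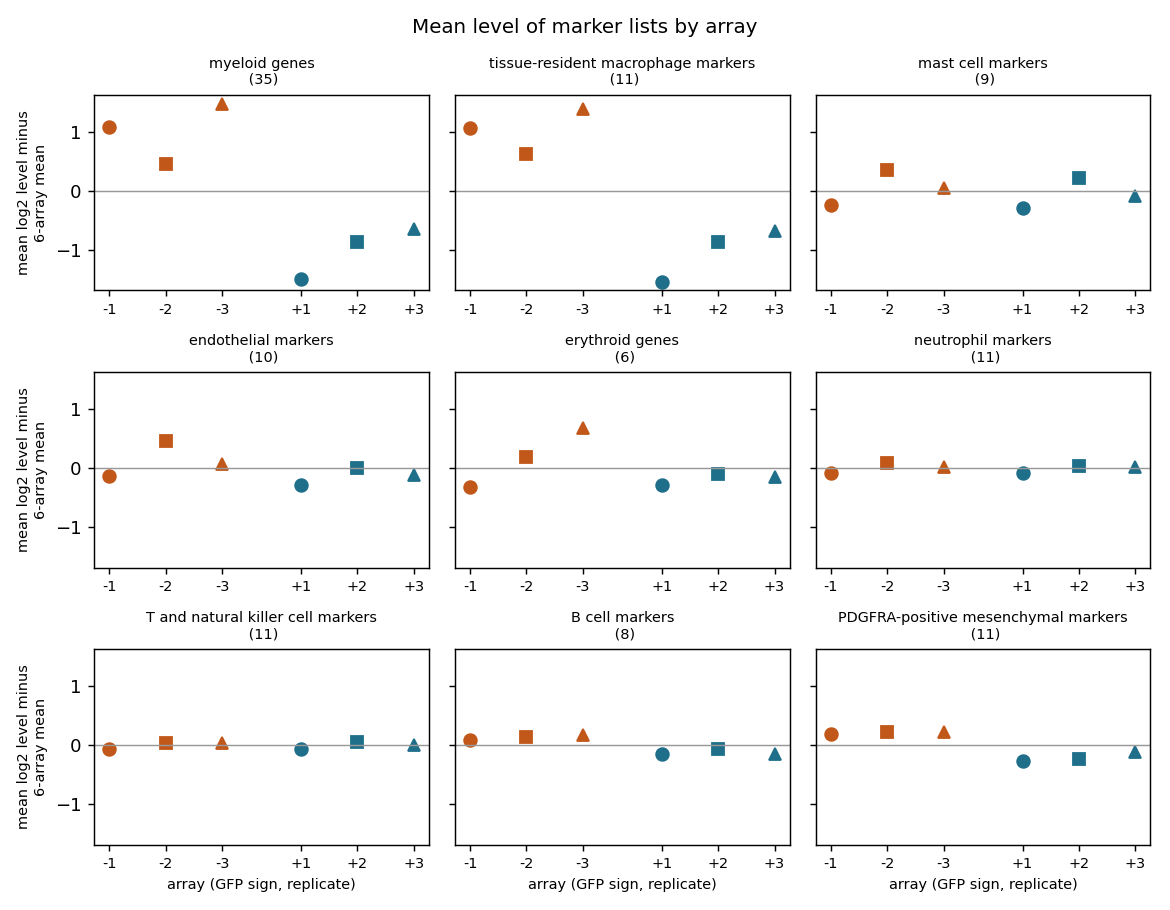
Mean log2 level of the 35 myeloid genes and of 8 marker lists in each array, minus the mean of the list over the 6 arrays (y axis, number of measured genes in parentheses). Orange marks are GFP-negative and blue marks GFP-positive arrays, and the marker shape gives the replicate. The myeloid genes and the resident macrophage markers part the groups by over 1 log2 unit, with mean member levels of 8.56 or more against 7.45 or less, while mast cell, endothelial and neutrophil markers are highest in negative replicate 2.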

How the data were processed

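Per the submitters' processing notes the authors used RMA and limma, and the deposited table holds log2 values, 1 per probe set and array. The sources used here give no version, library file or filter. As RMA makes array distributions alike, a change common to most genes is hidden. Of 41345 probe sets, 23521 listed 1 gene in the platform table and 1814 several. The brightest probe set stood for each of 22180 genes, 1082 of which had several. In R 4.3.3, limma 3.58.1 (lmFit, eBayes) was fitted over 6 arrays with Benjamini-Hochberg adjustment over all genes, after a test on simulated data. Array medians lay between 6.657 and 6.712. Precision is limited by having 3 arrays a group. The 35 members and all lists were chosen with earlier results of these data known. Beside the members, the genes named were drawn, per list, from up to 4 with the smallest p, up to 3 with the highest mean and all that passed where 5 or fewer did. Exceptions are named as chosen after their values were seen. Same-numbered arrays deviated together over all genes (correlations of 0.408, 0.314 and 0.519), so the replicate number was taken to pair them in the block fit, from the data alone. All p-values given without mention of the block, those with 1 array left out among them, came from unpaired fits. Sequences came from RefSeq (GRCm38.p6). Plots were drawn with matplotlib 3.10.9.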

Additional observations from a re-analysis of the deposited data

How the results depend on the processing

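The median change of the 35 genes stayed within the spread between arrays under all 14 alternatives run for it, among them quantile normalization, both ways of median centring and averaging probe sets. Leaving out dim genes removed 3 members from the test and the other 32 were called. At an adjusted p under 0.01 the calls were 7 members, 15 list genes in place of 46, and 539 genes in place of 1439. With the replicate block 2228 genes were called, and among the lists the block moved the count of calls by over 1.5 times for the other complement genes (9 in place of 5), the transcription and growth factor genes (7 in place of 4) and the Toll-like receptor pathway (5 in place of 3). It added 1 call each to the neutrophil and mast cell lists, which had none, and 1 lower call to the dendritic cell list. The call of Spi1 ended without any 1 array, at an adjusted p under 0.01, with each probe set by itself and with robust eBayes. With 1 array left out, members called ranged from 11 to 31, list genes from 21 to 47 and all genes from 629 to 1067. The median distance between negative arrays ranged from 0.466 to 1.036, and it must shorten where the lowest or highest array is left out. Genes over all were fewest without positive replicate 1, 2 or 3 (629, 667 and 762). List genes came to 24, 47 or 30 without negative replicate 1, 2 or 3 and to 21, 21 or 25 without positive replicate 1, 2 or 3. Of 46 list genes called, 15 were called in all 6 of these fits. Centring over the genes tested was chosen after seeing the data. The cause of the other shifts was not tested.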
